A study of Mus musculus with 4 samples.

Results

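The 30 genes described here encode subunits of the Polycomb repressive complexes PRC1 and PRC2. They were taken by name from a list of core and accessory subunits, which no measured value entered but which was drawn up with earlier results of these libraries known, and all 30 were found among the 14382 genes of the deposited expression table. Their messenger RNA was measured by RNA-seq of polyadenylated RNA in mouse embryonic stem cells (ESCs), in which the comparison asks which transcripts differ once Arid1a, a subunit gene of the BAF chromatin remodelling complex, has been deleted. All 4 libraries came from Arid1af/f:CreERT2 ESCs, which carry floxed Arid1a alleles and CreERT2, a Cre recombinase that acts when 4-hydroxytamoxifen (4-OHT) is bound. The ethanol group (2 libraries) received the solvent, and the 4-OHT group (2 libraries) received 1 µM 4-OHT for 24 hours. RNA was taken 72 hours after treatment in both groups, so the ethanol cells carry the floxed alleles and the recombinase too. The medium of both groups held LIF, serum and serum replacement, and irradiated fibroblasts of mouse embryos (MEF) lay under the cells as feeders, so that their RNA can enter any library. No library served as a control for 4-OHT in cells without floxed alleles or without CreERT2, so an effect of the drug or of the recombinase cannot be told apart from loss of Arid1a. The protocols name a TruSeq RNA v2 kit and a TruSeq Stranded mRNA kit without saying which library had which, so a kit difference between the groups cannot be told apart from the treatment either. The labels do not say that the replicates were separate cultures, and the p-values then measure only the spread between these libraries, which may be technical.

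Polycomb complexes keep developmental genes silent by marking histones. PRC2 methylates lysine 27 of histone H3 through EZH2 or EZH1, which work only together with EED and SUZ12, and accessory subunits bring the complex to its sites. PRC1 attaches ubiquitin to histone H2A through RING1 (gene Ring1) or RING1B (gene Rnf2), each paired with 1 of the PCGF proteins. Canonical PRC1 also holds a CBX protein, which binds the PRC2 mark, and a PHC protein, whereas variant PRC1 holds RYBP or YAF2 in place of the CBX protein. ESCs are known for high levels of several subunits whose paralogs are used in differentiated cells.

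Levels are given as CPM, the reads of a gene scaled to the effective size of its library, or as CPM per kb of exon where different genes are compared. The deposited columns were group means, from which each library's reads were worked back, as described under the processing. In either group the libraries, which carry no replicate number, are named A and B. They held between 6188378 and 7012664 reads, so that a read was worth 0.142 to 0.159 CPM. Arid1a, the targeted gene, measured 517 and 502 CPM in ethanol libraries A and B, and 241 and 213 CPM in 4-OHT libraries A and B. It fell by 1.16 on the log2(CPM + 1) scale (SE 0.066, adjusted p = 7.27e-06, limma). The Arid1a mean with 4-OHT was still 0.446 times the ethanol mean, and the source of the remaining reads was not tested. The 10 fixed ESC markers were all measured and summed to between 5153 and 5494 CPM, with 2 higher (Nanog, Tdgf1), 2 lower (Sox2, Esrrb) and 6 that did not pass. Of 28 fibroblast feeder markers 22 were measured, and they summed to 2934 and 2941 CPM in ethanol against 2543 and 2399 CPM with 4-OHT. Among them 4 rose (Col1a2, Thy1, Thbs1, Sparc), 4 fell (Col5a2, Fn1, Tagln, Fstl1) and 14 did not pass. Fn1 fell from a mean of 634 to 283 CPM, while Col1a2 rose from 20.8 to 45.0 CPM. The fall of the sum was thus not shared by all markers. The part of feeder cells in the results below was not tested. In bulk RNA, fewer cells of a type and less RNA per cell cannot be told apart. Over all 14376 genes tested, 754 rose and 606 fell (9.46% in either direction, limma, Benjamini-Hochberg adjustment, threshold 0.05). No gene was called by limma when either 4-OHT library was left out (lowest adjusted p 0.129 without A and 0.121 without B), Arid1a included. The edgeR test on the recovered reads called 2042 of 12961 genes with all libraries, and between 1303 and 1782 with 1 library left out, Arid1a among them each time.

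Most Polycomb subunit genes were abundant and differed little between the groups. Of the 30, 1 rose (L3mbtl2), 1 fell (Cbx6) and 28 did not pass the limma test. This count of 2 is to be read against the 5.24% of all genes that rose and the 4.22% that fell. Summed over the 30 genes, the 4 libraries measured 4245, 4220, 4308 and 4201 CPM, so that the ethanol values lay between the 2 values with 4-OHT. The median log2 difference between 4-OHT and ethanol was -0.02 over the 30 genes and -0.0016 over all genes, and 14 subunit genes lay above 0 and 16 below. In 29 of them the difference was within 0.3 in size on the log2(CPM + 1) scale. Cbx8, the least abundant, was the exception at 0.42. The 95% interval lay within 0.5 of 0 in 25 of the 30. Groups did not overlap for 12 of the genes, 7 higher and 5 lower with 4-OHT. Over all genes 52.1% did not overlap, 26.4% higher and 25.7% lower.

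**Figure D1:**
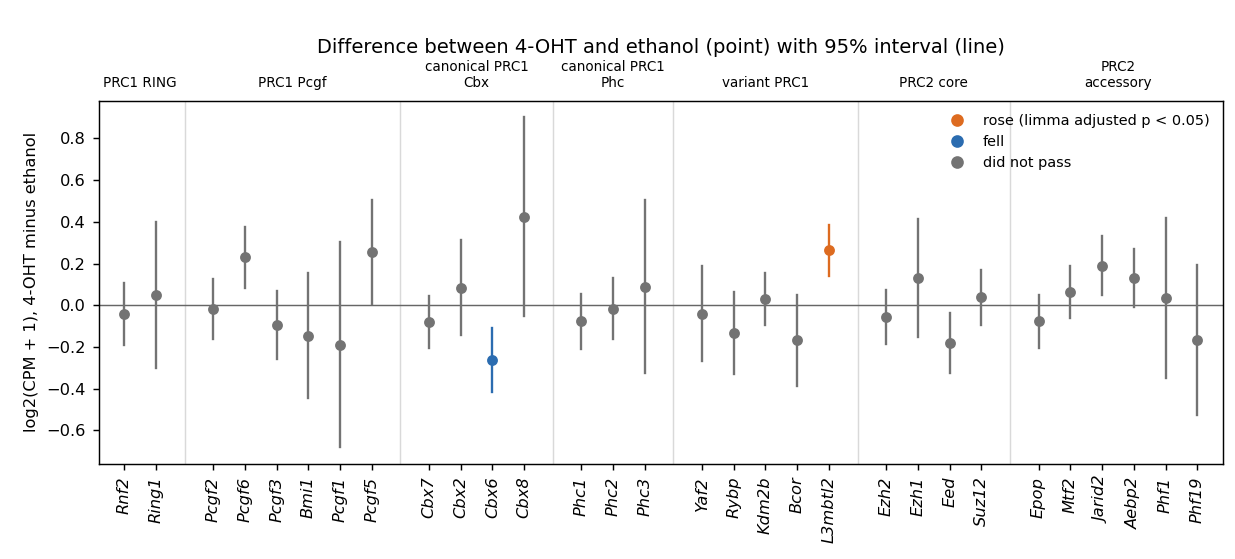
Difference between 4-OHT and ethanol for each of the 30 subunit genes, grouped by complex, on the log2(CPM + 1) scale (vertical axis; points, limma estimates from 2 against 2 libraries; lines, 95% intervals). L3mbtl2 at 0.26 rose, Cbx6 at -0.26 fell, and the widest intervals belong to Pcgf1 and Cbx8, which have the fewest reads.

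Per kb of exon, the ethanol means spanned 554-fold, from 0.296 CPM per kb for Cbx8 to 164 CPM per kb for Epop. The median of the 30 was 13.3 CPM per kb, against 5.94 over 13612 genes with a length, and 21 of the 30 lay above that value. Every member passed the edgeR filter on low counts, and 27 had at least 10 CPM in ethanol. Each paralog group had 1 leading member, whose level in ethanol was between 1.19 and 21.04 times that of the next.

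**Figure D2:**
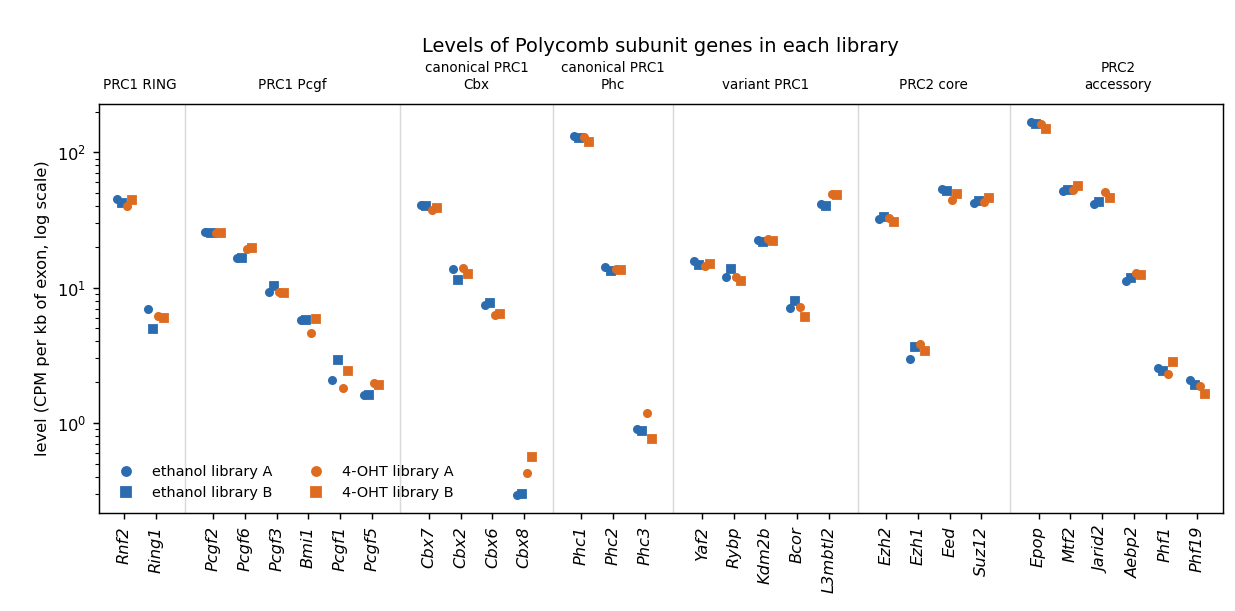
Level of each subunit gene in each of the 4 libraries (CPM per kb of exon, log scale), with circles for library A and squares for library B, blue for ethanol and orange for 4-OHT. Epop and Phc1 lie above 100 CPM per kb in every library, Cbx8 lies below 1, and the 4 points of a gene lie close together compared with the distance between most paralogs.

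The catalytic subunits of PRC1 were led by Rnf2, whose product RING1B is the main ubiquitin ligase in ESCs. Rnf2 measured 186 and 176 CPM in ethanol against 167 and 184 CPM with 4-OHT, and its groups overlapped. Ring1 measured 22.5 and 16.1 CPM in ethanol and 20.0 and 19.4 CPM with 4-OHT, which also overlap. Neither passed the test, with log2 differences of -0.04 for Rnf2 (adjusted p = 0.762, limma) and 0.05 for Ring1 (adjusted p = 0.891, limma). Per kb, the Rnf2 level was 7.37 times that of Ring1 in ethanol, and Rnf2 made up 86.7% to 89.6% of the pair's summed CPM per kb across the 4 libraries.

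The PCGF proteins set which form of PRC1 is built, and their genes were measured as 6 paralogs. Their order per kb in ethanol was Pcgf2, Pcgf6, Pcgf3, Bmi1, Pcgf1 and Pcgf5, with means of 25.7, 16.6, 9.82, 5.79, 2.50 and 1.61 CPM per kb, and neighbours in this order did not overlap across the ethanol libraries. With 4-OHT the same order of means held, but Pcgf1 (1.81 and 2.41 CPM per kb) and Pcgf5 (1.97 and 1.91 CPM per kb) overlapped. Pcgf2, which with Bmi1 belongs to canonical PRC1, measured 91.1 and 89.9 CPM in ethanol and 88.7 and 90.0 CPM with 4-OHT, nearly the same level in all 4 libraries. Its log2 difference was -0.02 (95% interval -0.16 to 0.13, adjusted p = 0.903, limma). Bmi1, the paralog best known from blood and neural stem cells, measured 23.1 and 22.9 CPM in ethanol and 18.3 and 23.4 CPM with 4-OHT, so that its 4-OHT libraries lay on both sides of the ethanol ones. The Pcgf2 level per kb was 4.45 and 4.42 times that of Bmi1 in the ethanol libraries and 5.45 and 4.34 times in the 4-OHT libraries.

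The place of Pcgf2 at the head of this group depended on the gene models. With the exons of basic transcripts only, the Pcgf2 level in ethanol was 0.827 times that of Pcgf6, instead of 1.55 times. Pcgf3 and Pcgf5 encode paralogs found in variant complexes, and neither passed the test. Pcgf3 measured 88.8 and 98.6 CPM in ethanol and 88.8 and 86.5 CPM with 4-OHT. Pcgf5 measured 20.3 and 20.4 CPM in ethanol and 24.9 and 24.2 CPM with 4-OHT, without overlap and with a log2 difference of 0.26 (95% interval 0.01 to 0.50, adjusted p = 0.196, limma). Pcgf1, of the complex with KDM2B and BCOR, was the least abundant of the 6 by CPM, with 3.41 and 4.84 CPM in ethanol and 2.98 and 3.97 CPM with 4-OHT.

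**Figure D3:**
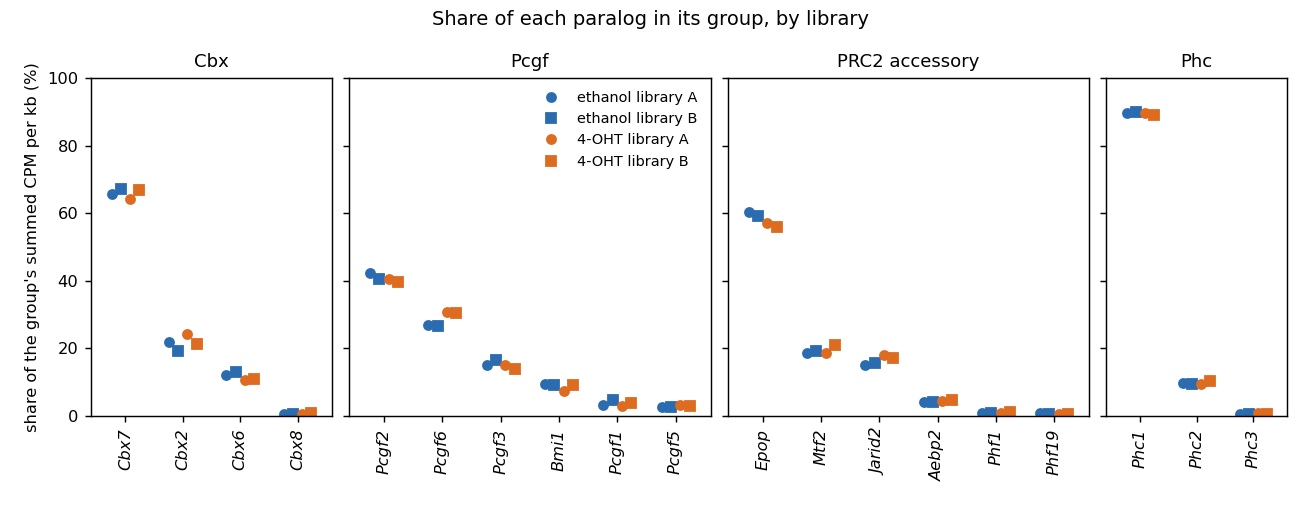
Share of each paralog in the summed CPM per kb of its group, in percent, for the Cbx, Pcgf, PRC2 accessory and Phc genes in each library (circles, library A; squares, library B; blue, ethanol; orange, 4-OHT). Cbx7, Pcgf2, Epop and Phc1 hold the largest share of their group in every library (Pcgf2 not with basic transcripts only), and Pcgf6 holds 26.5% to 26.9% in ethanol and 30.6% to 30.9% with 4-OHT.

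Pcgf6 and L3mbtl2 encode subunits of a variant complex that also holds MGA and MAX and is known for silencing germline genes in ESCs. L3mbtl2, a reader-type subunit with MBT repeats (mm10 chromosome 15, bases 81663889 to 81688315, plus strand), measured 248 and 237 CPM in ethanol and 293 and 289 CPM with 4-OHT. Both 4-OHT libraries lay above both ethanol libraries. The means were 242 ± 7.91 CPM in ethanol and 291 ± 2.92 CPM with 4-OHT (SD, n = 2 each), 1.20 times higher with 4-OHT. L3mbtl2 rose by a log2 difference of 0.26 (SE 0.055, 95% interval 0.14 to 0.39, adjusted p = 0.0140, limma), and edgeR and DESeq2 on the recovered reads gave adjusted p = 0.000938 and 0.0120. With 1 library left out the log2 difference stayed between 0.23 and 0.30, but the limma call held only without ethanol library A (adjusted p from 0.0369 to 0.200 over the 4 fits). The edgeR call was lost only without ethanol library B (adjusted p = 0.0918). Exons of Chadl on the opposite strand overlap 17.2% of the exon bases of L3mbtl2, and the use of strand in the authors' counting is not given in the sources used here. Chadl itself measured 8.21, 9.83, 9.67 and 9.54 CPM in the same library order and did not pass (adjusted p = 0.816, limma).

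Pcgf6 measured 82.8 and 83.8 CPM in ethanol and 96.2 and 99.3 CPM with 4-OHT. Its groups did not overlap, and the mean was 1.17 times higher with 4-OHT. The log2 difference of 0.23 (SE 0.065) missed the threshold in limma (adjusted p = 0.0560) and passed it in edgeR (adjusted p = 0.0309), but in no edgeR fit with 1 library left out (adjusted p from 0.0548 to 0.193). Mga, the DNA-binding scaffold of the same complex, is not among the 30 and was named after its values were seen. It measured 243 and 259 CPM in ethanol and 295 and 280 CPM with 4-OHT, a log2 difference of 0.20 that did not pass in limma (adjusted p = 0.0691) and passed in edgeR (adjusted p = 0.0204). DESeq2 did not call Mga (adjusted p = 0.155), and with a library left out edgeR called it only without 4-OHT library B (adjusted p = 0.00821, against 0.0713 to 0.359 in the other 3 fits). The other measured partners of this complex had smaller differences or lay below 0. Max, E2f6, Tfdp1, Cbx3, Hdac1, Hdac2, Wdr5, Rybp, Yaf2, Ring1 and Rnf2 had log2 differences from -0.19 to 0.05, 3 above 0 and 8 below, with no adjusted p under 0.168 in limma or under 0.154 in edgeR. Many of these proteins also serve in other complexes.

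Canonical PRC1 reads the PRC2 mark through its CBX subunit, and the genes of this family spanned a wide range of levels. Their upstream windows are shown for L3mbtl2 and Cbx6, the genes that passed the test, and for Cbx7 and Cbx8, the highest and the lowest CBX paralog. Each window runs from 250 bases before to 50 bases after the transcript start, 5′ to 3′ on the strand of the gene, from RefSeq (GRCm38.p6), with every CpG in capitals.
L3mbtl2 (chr15:81663639-81663938, plus strand, 17 CpG): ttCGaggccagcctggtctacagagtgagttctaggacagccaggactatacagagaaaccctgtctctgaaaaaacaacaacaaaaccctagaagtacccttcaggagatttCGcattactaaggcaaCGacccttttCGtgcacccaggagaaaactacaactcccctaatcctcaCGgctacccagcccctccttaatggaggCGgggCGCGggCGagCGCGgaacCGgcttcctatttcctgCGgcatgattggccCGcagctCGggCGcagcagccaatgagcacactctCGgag
Cbx6 (chr15:79834284-79834583, minus strand, 31 CpG): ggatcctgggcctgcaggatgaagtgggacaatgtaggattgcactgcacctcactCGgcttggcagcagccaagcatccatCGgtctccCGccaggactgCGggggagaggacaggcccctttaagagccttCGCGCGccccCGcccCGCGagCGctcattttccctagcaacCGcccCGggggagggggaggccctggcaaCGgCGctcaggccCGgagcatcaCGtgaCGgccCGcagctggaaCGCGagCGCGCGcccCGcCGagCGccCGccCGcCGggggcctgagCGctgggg
Cbx7 (chr15:79932597-79932896, minus strand, 33 CpG): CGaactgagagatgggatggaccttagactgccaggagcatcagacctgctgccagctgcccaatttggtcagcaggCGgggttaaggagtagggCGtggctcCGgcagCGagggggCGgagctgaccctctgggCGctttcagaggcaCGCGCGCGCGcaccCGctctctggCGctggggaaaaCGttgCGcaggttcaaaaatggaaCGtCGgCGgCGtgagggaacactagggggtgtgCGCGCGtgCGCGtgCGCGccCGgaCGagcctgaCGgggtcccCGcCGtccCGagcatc
Cbx8 (chr11:119040864-119041163, minus strand, 24 CpG): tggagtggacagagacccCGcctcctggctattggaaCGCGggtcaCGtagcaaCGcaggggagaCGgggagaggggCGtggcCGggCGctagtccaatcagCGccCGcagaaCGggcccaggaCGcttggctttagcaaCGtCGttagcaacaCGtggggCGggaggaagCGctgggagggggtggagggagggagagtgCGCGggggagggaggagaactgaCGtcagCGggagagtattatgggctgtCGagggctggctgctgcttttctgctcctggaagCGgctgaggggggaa

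All 4 windows were CpG-rich, the barely expressed Cbx8 included, with 24 CpG against 33 for Cbx7. Over the members, 37 windows were found for 25 of the 30 genes, and none for Pcgf1, Epop, Rybp, Cbx2 and Yaf2. They held a median of 23 CpG (2 to 49), against 7 over all 32851 windows, and 81.1% of them held at least 15 CpG, against 34.6% of all windows. All windows come from 27025 genes, more than the 14382 of the expression table. Windows of expressed genes alone were not compared, for CpG or for the motifs below. Cbx6 and Cbx8 each held the letters CACGTG, the E-box that MGA and MAX proteins can bind, which reads the same on both strands. This motif was found in 6 member windows (16.2%; Bmi1, Cbx6, Cbx8, Pcgf2, Phc2 and Phc3) and in 7.15% of all windows. The E2F-type letters TTCCCGC, or GCGGGAA on the other strand, were found in 3 member windows (8.11%; Pcgf5, Phf19 and Suz12) and in 4.60% of all windows. A match describes the letters of the window and shows no binding.

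Cbx7 is the CBX paralog known to prevail in undifferentiated ESCs, and it was the highest here. It measured 265 and 259 CPM in ethanol against 242 and 253 CPM with 4-OHT, and made up 64.3% to 67.3% of the summed CPM per kb of the 4 CBX genes across the libraries. Both 4-OHT libraries lay below both ethanol libraries, but the log2 difference of -0.08 did not pass (95% interval -0.21 to 0.04, adjusted p = 0.426, limma). Per kb, Cbx7 in ethanol was 3.22 times as high as Cbx2, a paralog known to compact chromatin, which measured 58.3 and 48.4 CPM in ethanol and 59.6 and 53.2 CPM with 4-OHT. Cbx2 in turn was 1.64 times as high as Cbx6 per kb, a ratio that came to 1.01 with the exons of basic transcripts only. With those exons Cbx7 was 5.49 times as high as Cbx2 in ethanol, and the mean ethanol share of Cbx7 was 73.2%.

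Cbx6 (mm10 chromosome 15, bases 79823896 to 79834688, minus strand) was the only subunit gene that fell. Its level was 79.4 and 82.2 CPM in ethanol and 66.4 and 67.9 CPM with 4-OHT, with both 4-OHT libraries below both ethanol libraries. The means were 80.8 ± 2.02 CPM and 67.1 ± 1.05 CPM (SD, n = 2 each), which is 0.831 times the ethanol level with 4-OHT. The log2 difference was -0.26 (SE 0.070, 95% interval -0.42 to -0.11), with adjusted p = 0.0413 in limma and 0.0158 in edgeR, but 0.281 in DESeq2. Every limma fit with 1 library left out lost the call (log2 difference -0.29 to -0.24, adjusted p 0.0900 to 0.235), and edgeR kept it only without 4-OHT library B (adjusted p = 0.0354). Exons of Npcd on the same strand overlap 5.31% of the exon bases of Cbx6. The share of Cbx6 in the CBX group was 12.0% and 13.1% in ethanol and 10.8% and 10.9% with 4-OHT.

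Cbx8, a paralog known to rise when ESCs differentiate, was barely expressed. The ethanol libraries had 7 reads each and the 4-OHT libraries 11 and 13 reads, or 1.09, 1.09, 1.56 and 2.07 CPM. Although the groups do not overlap, these few reads leave a wide 95% interval of -0.05 to 0.90 around the log2 difference of 0.42, and the test was not passed (adjusted p = 0.265, limma). Per kb the Cbx7 level was 138 and 134 times that of Cbx8 in the ethanol libraries and 87.7 and 69.4 times in the 4-OHT libraries.

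The PHC genes encode the polyhomeotic subunits, which join canonical PRC1 complexes through their SAM domains. Phc1 was the most abundant of the 30 by CPM, with 702 and 680 CPM in ethanol and 683 and 628 CPM with 4-OHT. Its share of the PHC group was between 89.2% and 90.0% in every library, and its log2 difference of -0.08 did not pass (95% interval -0.21 to 0.05, adjusted p = 0.469, limma). Phc2 measured 100 and 94.5 CPM in ethanol and 96.4 and 96.2 CPM with 4-OHT, which overlap. Phc3 measured 15.8 and 15.1 CPM in ethanol and 20.6 and 13.2 CPM with 4-OHT, where the 4-OHT libraries lay above and below the ethanol ones. Per kb, Phc1 was 9.46 times as high as Phc2 in ethanol, and Phc2 was 15.6 times as high as Phc3.

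The remaining variant PRC1 genes did not pass the test in limma, edgeR or DESeq2. Rybp and Yaf2, the adaptors that stand in for a CBX protein, were at similar levels per kb. Yaf2 held 51.8% to 57.2% of their sum across the libraries, and was 1.19 times as high as Rybp in ethanol. Rybp measured 56.6 and 64.6 CPM in ethanol against 57.1 and 52.9 CPM with 4-OHT, and Yaf2 measured 29.3 and 27.5 CPM in ethanol and 27.1 and 28.0 CPM with 4-OHT. Kdm2b, whose CXXC domain takes the PCGF1 complex to unmethylated CpG islands, measured 245 and 235 CPM in ethanol against 248 and 242 CPM with 4-OHT, and had a 95% interval of -0.09 to 0.15 around its log2 difference of 0.03. Bcor, the corepressor of that complex, measured 60.9 and 68.8 CPM in ethanol against 62.4 and 52.9 CPM with 4-OHT, and had a log2 difference of -0.17 (adjusted p = 0.334, limma).

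Bcorl1, the paralog of Bcor and not itself among the 30, rose. It had 13.5 and 10.8 CPM in ethanol and 24.3 and 21.5 CPM with 4-OHT, a log2 difference of 0.87 (adjusted p = 0.00483, limma). Its limma call was lost without either 4-OHT library (highest adjusted p 0.217), while edgeR called it in all 4 fits with 1 library left out. Usp7 and Skp1a, further partners in the PCGF1 complex, had log2 differences of -0.10 and 0.03 and did not pass.

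Of the PRC2 core genes, Ezh2, Eed and Suz12 were abundant and Ezh1 was low, and none passed the limma test. Ezh2, the main methyltransferase in proliferating cells, measured 216 and 223 CPM in ethanol and 217 and 205 CPM with 4-OHT, which overlap. Its log2 difference was -0.06 (95% interval -0.19 to 0.07, adjusted p = 0.613, limma). Suz12, the scaffold of the complex, measured 209 and 218 CPM in ethanol and 212 and 226 CPM with 4-OHT, with a log2 difference of 0.04 (95% interval -0.09 to 0.17). Eed, which binds the methylated lysine and stimulates the enzyme, measured 207 and 199 CPM in ethanol and 170 and 188 CPM with 4-OHT. Both 4-OHT libraries lay below both ethanol libraries for Eed, with a log2 difference of -0.18 (SE 0.065). Eed did not pass in limma (adjusted p = 0.118), passed at the edge in edgeR (adjusted p = 0.0498), and had edgeR adjusted p from 0.00879 (without 4-OHT library B) to 0.406 (without 4-OHT library A) when a library was left out. Ezh1, the paralog known from resting cells, measured 22.2 and 27.1 CPM in ethanol and 28.6 and 25.4 CPM with 4-OHT. Per kb the Ezh2 level was between 8.47 and 10.9 times that of Ezh1 over the 4 libraries. This ratio depended on the gene models. For the ethanol means it was 9.92, against 13.4 by longest transcript and 19.3 with basic transcripts only.

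Accessory subunits of PRC2 form separate subtypes of the complex, and their order per kb in both groups was Epop, Mtf2, Jarid2, Aebp2, Phf1 and Phf19, with no overlap between neighbours. Epop, an ESC-rich partner of the Polycomb-like subtype, was the highest of all 30 genes per kb by union of exons. It had 166 and 162 CPM per kb in ethanol and 161 and 150 CPM per kb with 4-OHT. This first place depended on the gene models. The ethanol means of Epop and Phc1 were 164.06 and 164.09 CPM per kb by longest transcript, and 164.06 and 160.39 CPM per kb with basic transcripts only. In CPM Epop measured 385 and 375 in ethanol and 374 and 346 with 4-OHT, and its log2 difference was -0.08 (95% interval -0.21 to 0.05, adjusted p = 0.463, limma). Mtf2 was by far the highest of the 3 Polycomb-like genes, whose products bind unmethylated CpG-rich DNA, and held 91.8% to 92.7% of their sum. Mtf2 measured 293 and 300 CPM in ethanol and 302 and 319 CPM with 4-OHT, with a log2 difference of 0.06 (adjusted p = 0.535, limma). Both others were low, Phf1 at 8.83 and 8.42 CPM in ethanol against 7.96 and 9.85 CPM with 4-OHT. Phf19 measured 10.4 and 9.67 CPM in ethanol against 9.38 and 8.27 CPM with 4-OHT. Their order per kb is close, since Phf1 was 1.24 times as high as Phf19 in ethanol and 1.02 times by longest transcript, and 39.3% of the Phf1 exon bases overlap Cuta on the other strand.

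Jarid2 and Aebp2 belong to the other subtype, in which JARID2 helps to bring the complex to chromatin and AEBP2 stabilises it. Jarid2 measured 405 and 419 CPM in ethanol and 497 and 443 CPM with 4-OHT, so that both 4-OHT libraries were higher but stood far apart. Its log2 difference was 0.19 (SE 0.064), not past the threshold in limma (adjusted p = 0.0982) and past it in edgeR (adjusted p = 0.0180). With a library left out, edgeR called Jarid2 only without 4-OHT library B, with adjusted p from 0.000354 to 0.317 over the 4 fits. Aebp2 measured 110 and 116 CPM in ethanol and 126 and 122 CPM with 4-OHT, without overlap, and did not pass (log2 difference 0.13, adjusted p = 0.248, limma). In shares of the 6 accessory genes per kb, Epop held 60.4% and 59.1% in ethanol and 57.2% and 55.8% with 4-OHT, and Jarid2 held 15.1% and 15.7% in ethanol and 18.1% and 17.03% with 4-OHT. With basic transcripts only, the mean shares in ethanol and with 4-OHT were 50.7% and 47.2% for Epop, and 20.6% and 23.2% for Jarid2. These shares are given as a description and were not tested.

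The calls near the threshold depended on the test. With edgeR, 5 of the 30 were called (L3mbtl2, Pcgf6 and Jarid2 higher, Cbx6 and Eed lower), where edgeR called 15.8% of all genes it tested, 8.12% higher and 7.63% lower. DESeq2 called L3mbtl2 alone, where it called 5.07% of all genes, 2.77% higher and 2.3% lower. Limma on genes with a mean of at least 1 CPM called L3mbtl2, Jarid2, Cbx6 and Pcgf6, where it called 15.2% of genes, 7.85% higher and 7.31% lower. At an unadjusted p under 0.05 in limma, 6 of the 30 passed, beside 3441 of all 14376 genes.

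**Figure D4:**
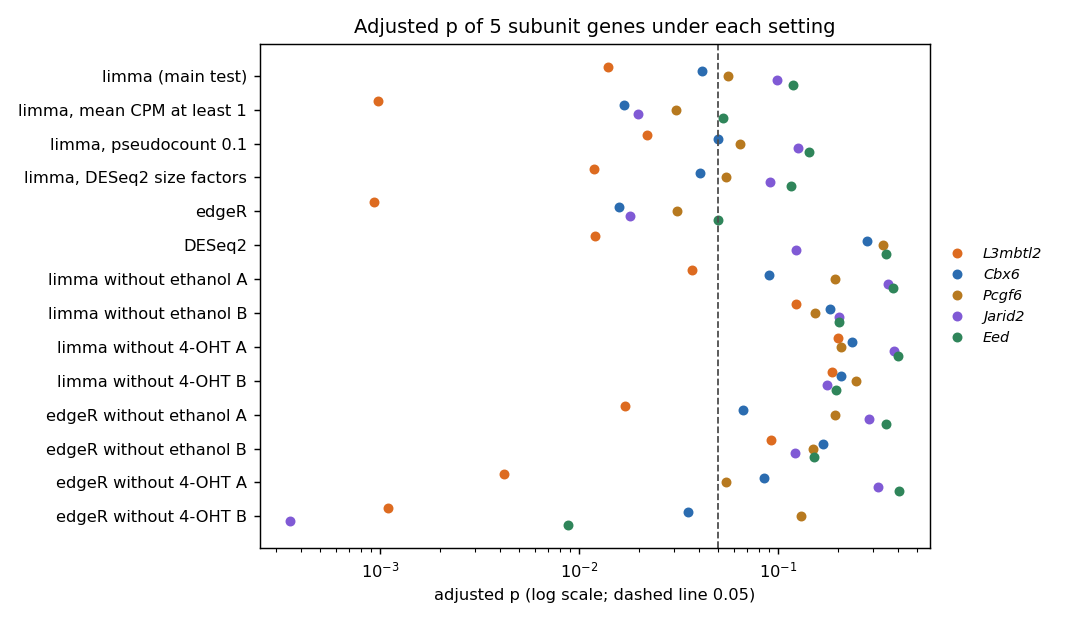
Adjusted p (horizontal axis, log scale, dashed line at 0.05) of the 5 subunit genes called by limma or edgeR, under each test, filter and left-out library (rows). L3mbtl2 lies left of the line in every row with all 4 libraries, and limma without a library leaves only L3mbtl2 without ethanol library A past it.

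Other genes of the Polycomb pathway were taken from lists of partners, opposing enzymes and developmental targets. Of 27 measured partners outside the 30 genes, Bcorl1 rose, Rest fell and 25 did not pass, with a median log2 difference of -0.02. These calls are 7.41% of the partners, where limma called 9.46% of all genes, 5.24% higher and 4.22% lower. EdgeR called Bcorl1, Mga and Rest, where it called 15.8% of all genes it tested. Rest, a zinc finger repressor of neuronal genes that can bind Polycomb proteins, measured 273 and 278 CPM in ethanol and 234 and 212 CPM with 4-OHT (log2 difference -0.31, adjusted p = 0.0120, limma). Without a library, the limma adjusted p of Rest ran from 0.0331 to 0.187 with 1 call in 4 fits, and edgeR called it in all 4. Among 16 enzymes that remove the Polycomb marks or their cofactors, Kdm6b, a demethylase of histone H3 lysine 27, rose in limma. The others did not pass in limma, so that 6.25% were called, against the same 9.46% of all genes. Ogt was called as well by edgeR (adjusted p = 0.0464) but not by DESeq2 (adjusted p = 0.345). Kdm6b measured 84.2 and 75.0 CPM in ethanol and 99.4 and 96.2 CPM with 4-OHT (log2 difference 0.30, adjusted p = 0.0352, limma). The Kdm6b call was lost in DESeq2 (adjusted p = 0.141), with a pseudocount of 0.1 (0.0507), and in 3 of 4 limma fits without a library (up to 0.292).

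Developmental genes known as Polycomb targets in ESCs had larger differences than the subunits, by value. Of 37 measured of 50 listed, 21 rose, 1 fell (T, a mesoderm factor) and 15 did not pass, and their median log2 difference was 0.78. At the same threshold 5.24% of all genes rose and 4.22% fell. DESeq2 called 12 targets higher and 1 lower, and edgeR called 18 higher and 3 lower among the 30 that passed its filter on low counts. Genes near 0 reads in ethanol can pass that filter only through the 4-OHT libraries. Such genes may also have entered the deposited table only through those libraries. The counts in limma, DESeq2 and edgeR and the median are therefore no support for a direction. Since the target list too was drawn up with earlier results known, these counts are a description. Gsx1, a homeobox factor of the neural tube, had the largest difference, from 2 and 1 reads in ethanol to 91 and 63 with 4-OHT. Msx1 had 23 and 25 reads in ethanol against 116 and 114 with 4-OHT, and Hoxb8 had 1 and 1 in ethanol and 20 and 21 with 4-OHT. The proneural factor Neurog1 (1 and 4 reads in ethanol, 33 and 18 with 4-OHT), Zic1 (5 and 8, then 45 and 32) and Neurog3 (4 and 4, then 26 and 33) were likewise low in ethanol and higher in both 4-OHT libraries. Limma called none of these 6 targets when a 4-OHT library was left out (adjusted p up to 0.171). Cdkn2a, the cell cycle inhibitor locus that BMI1 and CBX7 are known to repress, was counted at 19 and 23 reads in ethanol against 34 and 30 with 4-OHT, and did not pass (log2 difference 0.45, 95% interval 0.01 to 0.88, adjusted p = 0.195, limma). Among 13 measured endoderm and trophoblast markers, Cdx2 rose and 4 fell, and their sum was 480 and 452 CPM in ethanol against 388 and 386 CPM with 4-OHT. The part of other cell types in the target genes was not tested.

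**Figure D5:**
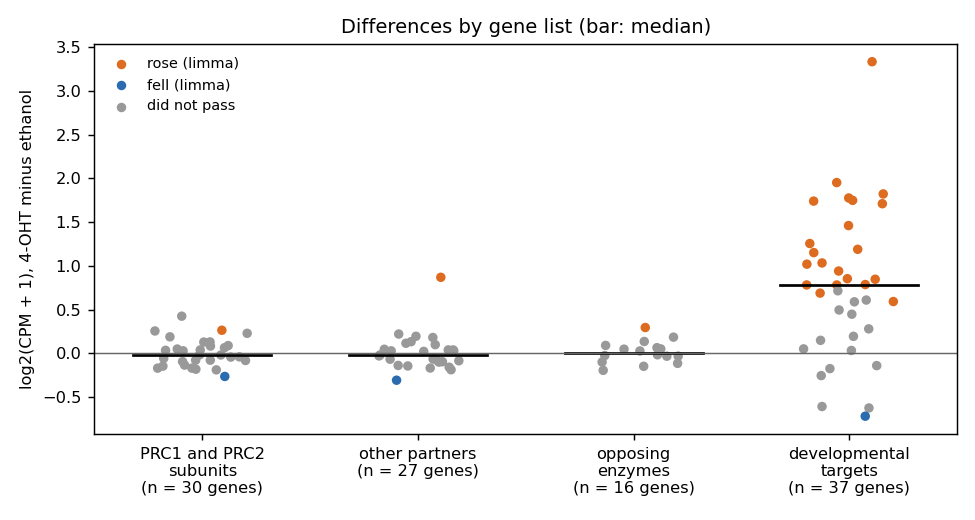
Log2(CPM + 1) difference between 4-OHT and ethanol for each measured gene of the subunit, partner, opposing enzyme and target lists (points spread sideways for display; bars, medians). The medians of the first 3 lists lie near 0, while the 37 targets have a median of 0.78. Targets near 0 reads in ethanol may be in the deposited table only through the 4-OHT libraries.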

How the data were processed

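The tools listed per the submitters' processing notes are HISAT2, Trimmomatic, FastQC and edgeR, with mm10 as the build. How reads were counted, on which annotation and whether by strand, is not given in the sources used here. Per the file headers, the authors' table gives a mean CPM for each group, a log2 fold change and an adjusted p-value. The deposited log2 and p-value columns were left aside, since their rows do not belong to the genes beside them: once rows are sorted by Entrez number as text, the adjusted p falls in 0 of 14381 steps, and the Spearman rho of the log2 column with the ratio of the CPM columns is 0.018 across genes. A mean CPM adds the whole reads of both libraries, each multiplied by a constant of that library. These constants were read off low values of the deposited CPM columns, after which 100% of the values gave whole reads to 10 significant digits. A single solution existed for 99.7% of ethanol values and 99.95% of 4-OHT values, including all 30 members. Where several existed, the one with libraries within 2-fold of each other was taken, and 6 genes without such a solution were left out. The libraries' effective sizes came to 6451759 and 6410293 reads (ethanol) and to 7035534 and 6291532 reads (4-OHT). The reads carry no molecular identifiers and so are not independent molecules, and a count of 0 allows up to 3 reads (0.426 to 0.477 CPM), for counting error only.

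The main test was limma-trend 3.58.1 (R 4.3.3) on log2(CPM + 1) of each library, two-sided, with Benjamini-Hochberg adjustment over 14376 genes and a threshold of 0.05, low values included. This scale understates the change of low genes. The recovered reads were also tested with edgeR 4.0.16 (quasi-likelihood, filterByExpr) and DESeq2 1.42.0. Other settings were a pseudocount of 0.1, a mean CPM of at least 1, DESeq2 size factors, and each library left out. The tests were first tested on simulated data. Exon lengths are unions of exons in GENCODE M21 (GRCm38), where RefSeq exons had been foreseen, with the longest or basic transcripts as alternatives. The edgeR fits without a library and the basic transcripts were chosen after seeing the data. Neighbours in level were called apart only where their libraries did not overlap.

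The members and the lists were chosen with earlier results of these data known, so no p over a list is given. Named genes are Arid1a, Cdkn2a, every member, and the members of each list past the threshold (at most 6, by size of change). Mga, Ogt, Chadl, Usp7, Skp1a, the named feeder markers and the partners of the PCGF6 complex were named after their values were seen.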

Additional observations from a re-analysis of the deposited data

How the results depend on the processing

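No paired analysis was possible because the recovered libraries carry no replicate numbers. Over all genes, edgeR called 2042 and DESeq2 700 against 1360 in limma. With 1 library left out, limma called 0 to 1031 and edgeR 1303 to 1782, the lone library of a group being assumed to vary like the other group. Of the 30 subunit genes, edgeR called 5, DESeq2 1 and limma with a mean CPM of at least 1 called 4, against 2, and with 1 library left out limma called 0 to 1 and edgeR 0 to 4. Of the other pathway genes, DESeq2 called 15 against 25, and with 1 library left out limma called 0 to 21 and edgeR 21 to 25. The Arid1a log2 difference ran from -1.25 to -1.08 in limma and from -1.26 to -1.08 in edgeR without 1 library. Over 30 members and 5 other settings with all libraries (150 values), 144 kept direction and side of the threshold, 1 lost the call, 5 gained it and 0 turned direction. Without 1 library, 11 members turned direction in limma, none past the threshold, with lowest and highest log2 differences of -0.31 and 0.021 for Bmi1, -0.18 and 0.28 for Ring1, -0.11 and 0.027 for Rnf2, -0.0097 and 0.27 for Ezh1, -0.0059 and 0.084 for Suz12, -0.10 and 0.17 for Phf1, -0.049 and 0.22 for Cbx2, -0.39 and 0.014 for Pcgf1, -0.085 and 0.0052 for Yaf2, -0.061 and 0.026 for Phc2 and -0.21 and 0.39 for Phc3. The same 11 turned in edgeR, at 0.022 for Bmi1, -0.19 for Ring1, 0.027 for Rnf2, -0.0042 for Ezh1, -0.0062 for Suz12, -0.12 for Phf1, -0.045 and -0.0023 for Cbx2, 0.018 for Pcgf1, 0.0046 for Yaf2, 0.026 for Phc2 and -0.23 for Phc3. The cause was not tested, and the smaller number of libraries cannot be told apart from which library was left out. The order of 18 neighbouring paralogs held in 18 pairs by longest transcript and in 17 with basic transcripts, and without either ethanol library. The median width of the 95% interval on either side of a member's log2 difference was 0.15, above the median size of those differences (0.09), and Cbx8 and Pcgf1 had the widest intervals.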
